A study of Mus musculus with 48 samples.

Results

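The genes described here are 2 STAT genes (Stat2 and Stat3), 3 interferon regulatory factor (IRF) genes (Irf1, Irf7 and Irf9) and 4 interferon-stimulated genes (Ifit1, Ifit3, Isg15 and Apol9b). They were chosen by name, with earlier results of these data known, and are 9 of the 47480 gene symbols in each of the 2 count tables of the study. RNA was sequenced from C2C12 cells, an established line of mouse myoblasts that fuse into multinucleated muscle cells when they differentiate. The cells grew on flexible collagen-coated plates that were either deformed in cycles (stretched) or left still (non-stretched), as myoblasts or as differentiated cells, which the labels call myotubes. Harvest followed after 1 h, after 3 h or after 6 h. This gave 12 groups of 4 libraries, 48 in all, and each stretched group had non-stretched cells of its own time. The comparison of the pair asks which transcripts differ after stretching of that length.

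In myoblasts, replicates 7 and 8 carry the experiment code B27 and replicates 9 and 10 the code B31. In differentiated cells, replicates 7 and 8 carry B25 and replicates 9 and 10 carry B28, except that the stretched group at 1 h holds replicates 4, 7, 8 and 9, of which replicate 4 is the only library of B17. In the labels, these codes alone say which libraries share an experiment. The study describes a split of the differentiated libraries that the codes match in the stretched group at 1 h but not in the other groups. The values within experiments and the fits with the experiment rest on the codes. The p-values below measure the spread between these libraries. The labels give the molecule as nuclear RNA, while the methods of the study describe a kit extraction from washed cells. The libraries held between 48447318 and 77080730 counts.

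STAT proteins carry signals from cytokine receptors to the nucleus: JAK kinases bound to the receptor phosphorylate them, and they then bind DNA in pairs. Type I interferons act through a complex that holds STAT2 and IRF9 and binds the interferon-stimulated response element (ISRE), while interferon gamma acts through STAT pairs at the gamma-activated sequence (GAS), and cytokines of the interleukin 6 family act mainly through STAT3. IRF1 and IRF7 are transcription factors that raise interferon and antiviral genes, and in skeletal muscle JAK-STAT signaling is known for its part in the proliferation and differentiation of myoblasts.

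Levels are given as CPM, a gene's count relative to the total count of its library, after scaling with edgeR's TMM factors within a stage; a group's mean is given with the SD over its 4 libraries. Each stretched group was compared with the non-stretched group of its time with edgeR's quasi-likelihood test over all genes that passed a filter on low counts. Log2 fold changes are stretched minus non-stretched, and p-values were adjusted by Benjamini-Hochberg over all genes tested. A gene is said to have risen or fallen where its adjusted p was under 0.05, and to have been called where its log2 fold change was also at least 0.58 in either direction. These are bulk libraries, in which fewer cells of a type and less RNA per cell cannot be told apart. CPM of the myoblasts and of the differentiated cells were scaled separately, and their levels were not tested against each other.

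Among the 9 genes, Stat3 had the highest level per length of transcript in both stages. In myoblasts the order of the mean levels over 24 libraries, in CPM per kilobase of exon sequence, was Stat3 (6.78), Irf1 (4.23), Apol9b (3.79), Stat2 (2.74), Irf9 (1.38), Isg15 (0.370), Ifit3 (0.100), Ifit1 (0.0705) and Irf7 (0.0665). Irf1 and Apol9b differed by less than their SDs of 0.738 and 0.777, and the means of Ifit3, Ifit1 and Irf7 differed by less than the largest of their SDs (0.0348, 0.0388 and 0.0199). The order in differentiated cells was Stat3 (25.5), Apol9b (11.8), Irf1 (6.52), Stat2 (5.29), Irf9 (1.61), Isg15 (1.26), Ifit3 (0.413), Irf7 (0.343) and Ifit1 (0.296). There Irf9 and Isg15 differed by about the larger of their SDs (0.230 and 0.350), and the means of Ifit3, Irf7 and Ifit1 lay within the largest of their SDs of each other (0.128, 0.0636 and 0.130).

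The description below turns on these genes: Stat2, which was lower in stretched cells at 1 h and 3 h and higher at 6 h; Irf1 and Irf9, which were lower in stretched myoblasts at 1 h; and Irf7, Ifit1, Ifit3 and Isg15, which had few counts, above all in myoblasts. In myoblasts at 1 h, 3 of 8 genes tested fell by edgeR (Stat2, Irf1 and Irf9), where 4.24% of all genes tested fell and 1.67% rose. At 3 h in myoblasts 1 of 8 fell (Stat2), where 15.8% of all genes fell and 16% rose. Stat2 alone rose at 6 h, 1 of 8, where 14.1% of all genes rose and 13.0% fell.

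In differentiated cells at 1 h edgeR passed 0 of 9 genes, where 0.470% of all genes fell and 0.193% rose. Of these 9, 3 had an unadjusted p under 0.05, and DESeq2 passed 1 (Stat2). At 3 h, 2 of 9 fell (Stat2 and Irf1) and 1 rose (Apol9b), where 11.4% of all genes fell and 10.8% rose. At 6 h, 1 of 9 rose (Stat2) and 1 fell (Apol9b), where 11.5% of all genes rose and 10.8% fell. The counts at 3 h and 6 h stand beside large shares of all genes, and the largest of them is 3 of 9.

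Stat2 and Irf1 in myoblasts at 1 h were the calls with the fold change rule, 2 of 8 genes where 1.25% of all genes were called. The same rule called 1.71% of all genes in myoblasts at 3 h and 2.17% at 6 h, and in differentiated cells 0.270% at 1 h, 1.63% at 3 h and 2.04% at 6 h. In those 5 comparisons edgeR called 0 of the 9 genes; at an unadjusted p under 0.05 they numbered 3, 3, 3, 4 and 4, and DESeq2 called 1, Stat2 in differentiated cells at 1 h.

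**Figure D1:**
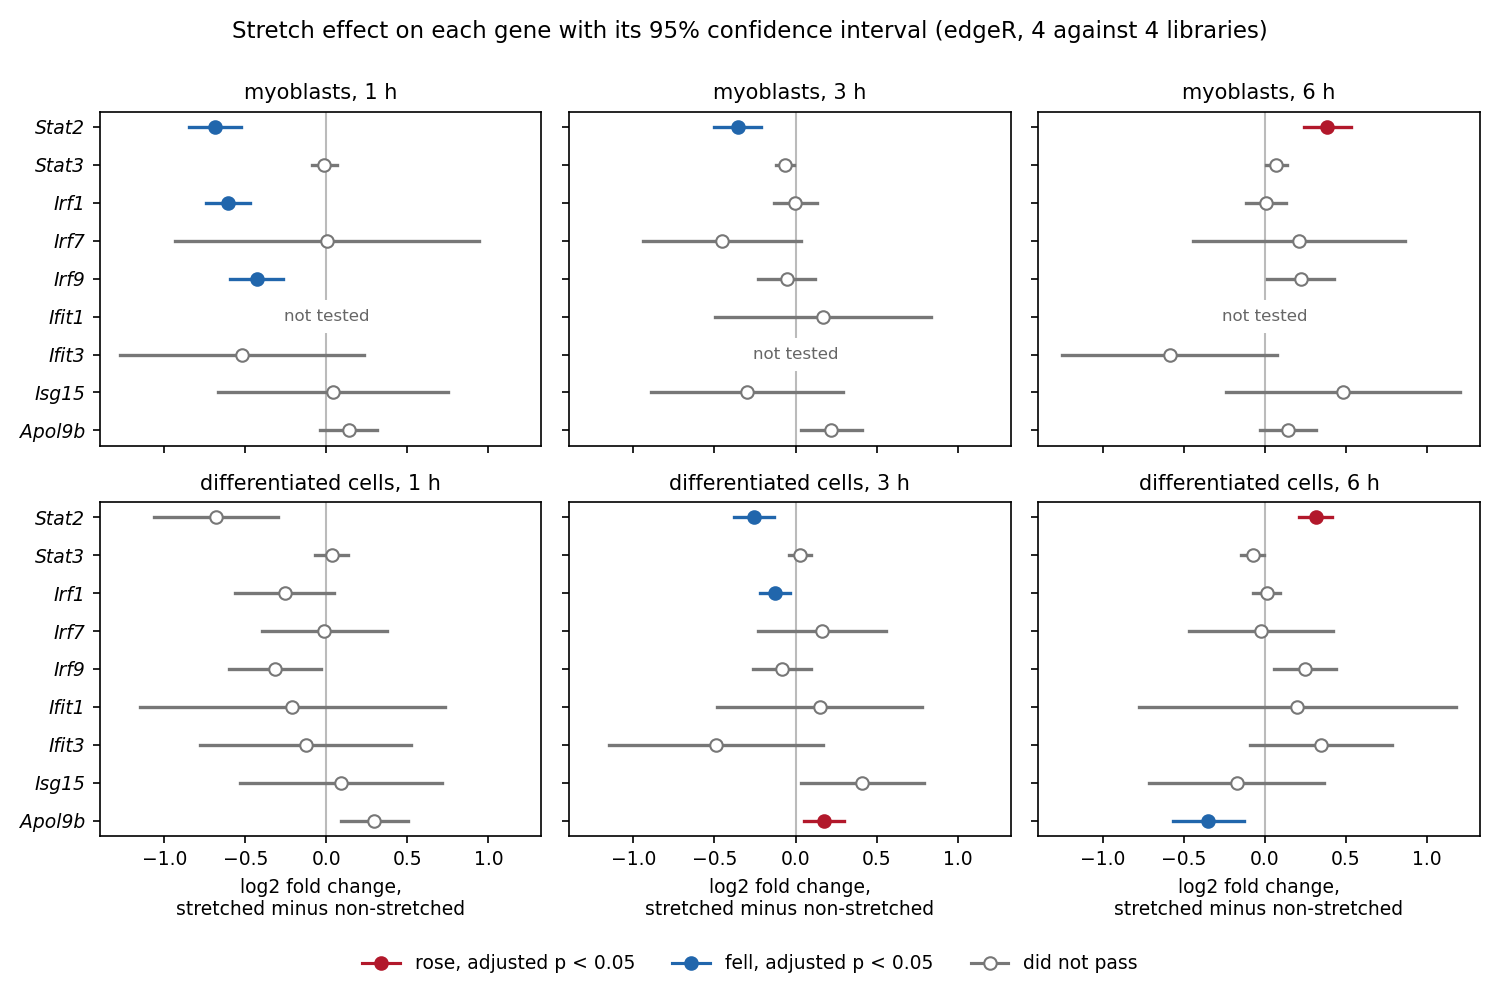
Log2 fold change (stretched minus non-stretched) of each of the 9 genes at each time in each stage, with its 95% confidence interval from edgeR. Filled points passed the test (blue fell, red rose), open points did not, and genes removed by the filter on low counts are marked as not tested; Stat2 goes from -0.69 at 1 h to 0.39 at 6 h in myoblasts, while Stat3 stays within 0.08 of 0 in each panel.

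Stat2 encodes the STAT protein that is particular to the interferon response complex with IRF9. The gene lies on the plus strand of chromosome 10 (mm10, 128270559 to 128292849), and 1.85% of its stretches of 31 bases occur in other genes. Its promoter is shown because Stat2 passed the test in 5 of 6 comparisons and because its window holds a match to the element that its own product binds. The 250 bases before its start (RefSeq, GRCm38.p6, chr10:128270248-128270497, plus strand) read as follows, with the match to the ISRE letters (GAAA, any 2 bases, GAAA), searched on both strands, in capitals.
Stat2: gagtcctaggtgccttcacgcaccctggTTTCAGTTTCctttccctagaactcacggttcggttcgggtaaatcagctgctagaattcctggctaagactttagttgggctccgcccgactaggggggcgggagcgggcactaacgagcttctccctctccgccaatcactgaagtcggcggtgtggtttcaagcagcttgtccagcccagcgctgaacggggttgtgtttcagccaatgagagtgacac
The match begins 222 bases before the start. Of 32851 promoter windows of 300 bases, 3.44% held such a match; it describes letters only.

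In myoblasts at 1 h, Stat2 stood at 15.7, 14.1, 17.9 and 16.1 CPM in non-stretched replicates 7, 8, 9 and 10 and at 10.5, 9.25, 9.41 and 10.4 CPM in the stretched ones. All 4 stretched libraries lay below all 4 non-stretched ones. The means were 15.9 ± 1.57 and 9.88 ± 0.642 CPM, a log2 fold change of -0.69 (95% interval -0.85 to -0.53; edgeR, adjusted p = 0.000311). Within the experiments the difference was -0.59 (B27) and -0.78 (B31). Over all genes with enough counts, replicate 7 was farther from the other libraries of its group (mean chi-square per gene of 105 to 117 without stretching and 139 to 227 with it) than these were from each other (8.01 to 24.4 and 6.14 to 43.6). Stat2 also passed without replicate 7 of either group.

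After 3 h the non-stretched myoblasts had 17.4, 17.8, 16.95 and 19.5 CPM of Stat2 and the stretched ones 12.1, 14.2, 13.9 and 15.6 CPM. The stretched libraries were again all lower, with a smaller distance between the groups. Stat2 fell by 0.36 on the log2 scale (edgeR, adjusted p = 0.00144). At 6 h the order was the opposite: 16.4, 18.1, 17.7 and 16.8 CPM without stretching and 23.6, 20.1, 25.01 and 21.3 CPM with it. All 4 stretched libraries lay above all 4 non-stretched ones, and the log2 fold change was 0.39 (95% interval 0.24 to 0.53; edgeR, adjusted p = 0.00164). These 3 results kept their side of the adjusted p threshold in the 15 alternative fits, while under the fold change rule those at 3 h and 6 h were not called. The mean of the non-stretched myoblasts lay between 15.9 and 17.9 CPM at the 3 times, and their change from 1 h to 6 h did not pass edgeR's test (log2 0.11, adjusted p = 0.453).

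In differentiated cells at 1 h, Stat2 stood at 32.6, 31.2, 33.8 and 33.0 CPM in the non-stretched libraries and at 13.4, 20.6, 19.3 and 28.2 CPM in stretched replicates 4, 7, 8 and 9. All stretched libraries were lower, but they were spread widely, with replicate 4 lowest and replicate 9 closest to the non-stretched cells. Over all genes with enough counts, replicate 4 also stood apart from the other stretched libraries. Its mean chi-square per gene to them was 74.7 to 130, against 29.8 to 51 among them. In the non-stretched group replicate 8 stood apart as well, at 48.1 to 94.3 to the others against 13.8 to 36.4 among these. The means were 32.7 ± 1.09 and 20.4 ± 6.08 CPM, and the log2 fold change of -0.68 (95% interval -1.06 to -0.30) did not pass edgeR's test (adjusted p = 0.137). The difference within B25 was -0.68 and within B28, where 1 stretched library is left, -0.24. Without stretched replicate 4 the log2 fold change was -0.53 and did not pass (edgeR, adjusted p = 0.0742). Without stretched replicate 9 it was -0.87 and passed (edgeR, adjusted p = 0.0186), as it did with DESeq2 (-0.68, adjusted p = 0.00535) and with the experiment as a covariate in edgeR (-0.50, adjusted p = 0.0127); over the 15 alternatives the adjusted p ran from 0.00122 to 0.348.

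Stretched differentiated cells had less Stat2 at 3 h and more at 6 h. At 3 h the non-stretched libraries had 30.6, 32.0, 36.0 and 34.8 CPM and the stretched ones 26.8, 29.6, 26.8 and 28.5 CPM, with no overlap. Stat2 fell by 0.26 on the log2 scale (edgeR, adjusted p = 0.0085). The 6 h values were 31.6, 30.99, 33.6 and 35.1 CPM without stretching and 42.1, 39.1, 42.1 and 40.3 CPM with it, again with no overlap and in the opposite order. Over all genes with enough counts, replicate 9 at 6 h stood apart in both groups. Its mean chi-square per gene to the others was 61.5 to 89.7 without stretching and 58.6 to 90.8 with it. Among the others it was 6.21 to 29.8 and 15 to 54.8. The log2 fold change of Stat2 at 6 h was 0.32 (95% interval 0.21 to 0.42, edgeR, adjusted p = 0.00162), and it also passed without replicate 9 of either group. With all 24 libraries of the stage in 1 edgeR model both calls were lost (adjusted p = 0.146 at 3 h and 0.0569 at 6 h; the ranges over the alternatives were 0.000411 to 0.146 and 1.51e-07 to 0.0569).

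Whether the stretch effect itself differed between times was tested with an interaction term over the 24 libraries of a stage. The test asks for any difference between the 3 times. It passed for Stat2 in myoblasts (edgeR, adjusted p = 2.56e-07) and in differentiated cells (edgeR, adjusted p = 0.000924, or 7.83e-05 without stretched replicate 4, within 9.42e-06 to 0.000852 over the alternatives). The estimated effect at 6 h lay above that at 1 h by 1.07 on the log2 scale in myoblasts and by 0.99 in differentiated cells, and that at 3 h by 0.33 and 0.42. This test passed for 4 of 9 genes in myoblasts (Stat2, Irf1, Irf9 and Stat3), where 32.0% of all genes passed it. In differentiated cells it passed for 3 of 9 (Stat2, Apol9b and Irf9), where 17.2% of all genes did.

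**Figure D2:**
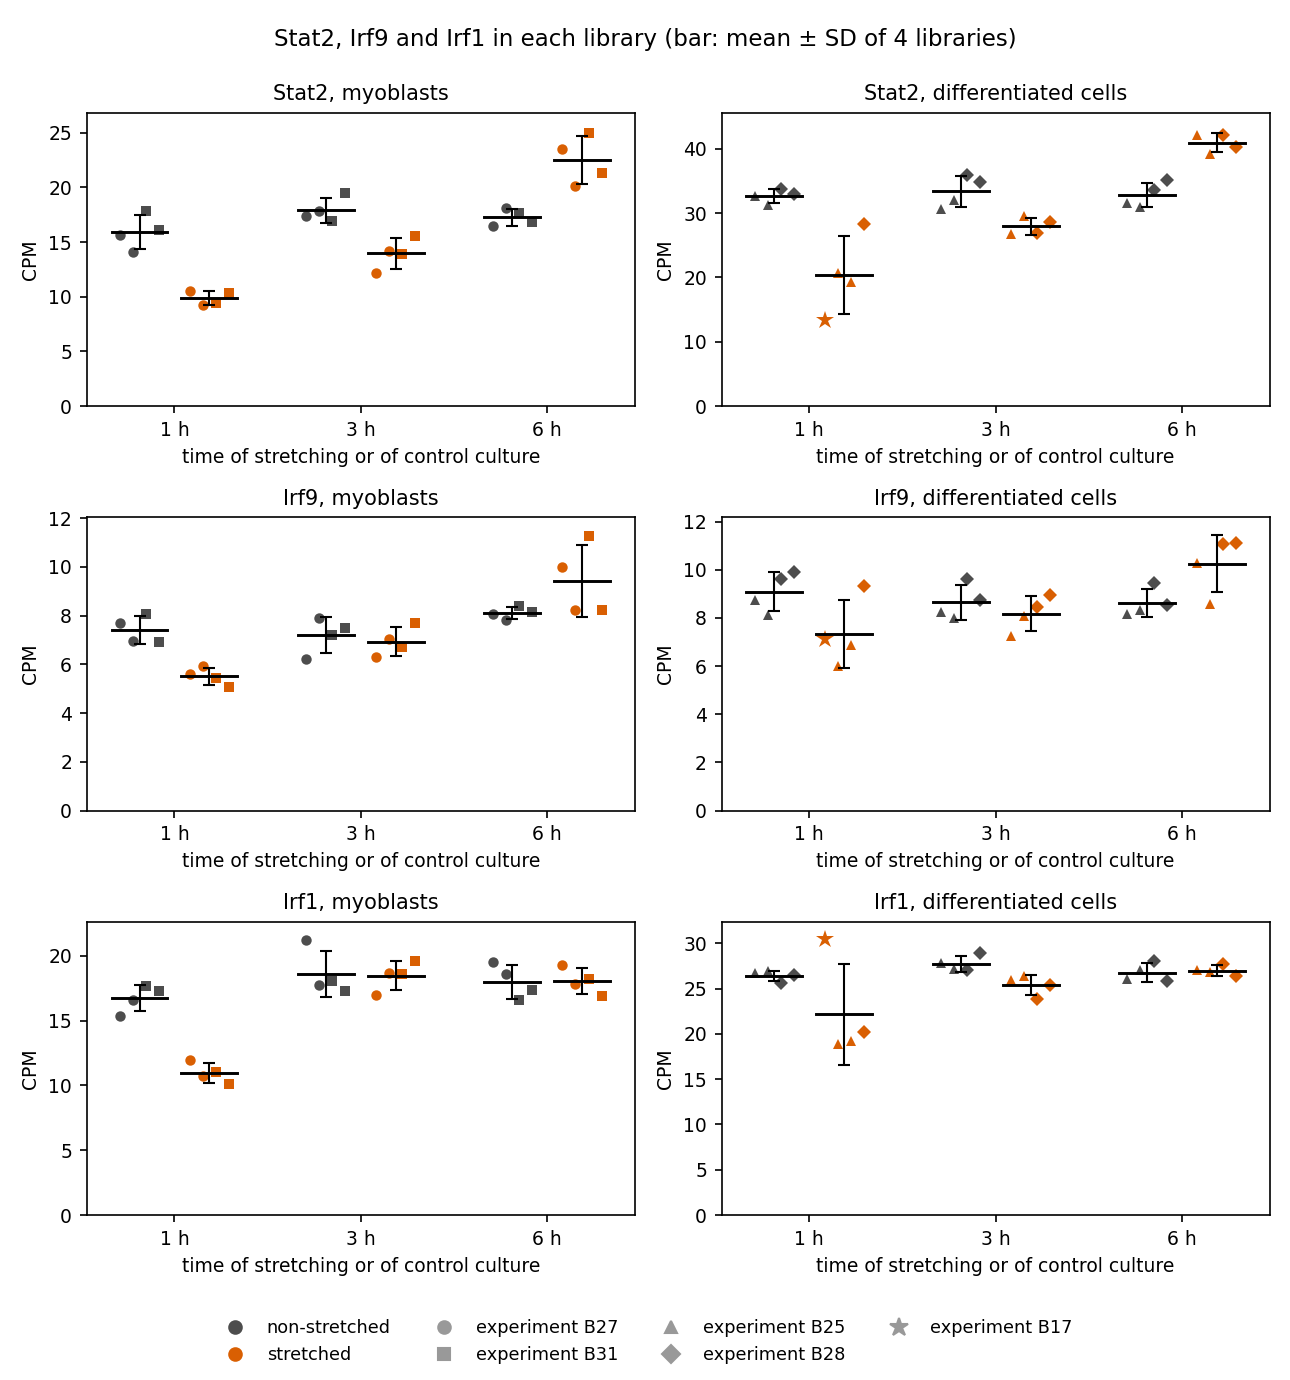
CPM of Stat2, Irf9 and Irf1 (vertical axis) in each of the 48 libraries at 1 h, 3 h and 6 h (horizontal axis), in myoblasts (left) and differentiated cells (right). Each point is a library, gray without and orange with stretching, with the shape giving the experiment code, and bars give the mean ± SD of 4 libraries; Stat2 lies lower with stretching at 1 h and 3 h and higher at 6 h, and Irf1 in stretched differentiated cells at 1 h has replicate 4 (30.5 CPM) far above the other 3.

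Stat3, the STAT protein that answers to interleukin 6 and its relatives, lies on the minus strand of chromosome 11 (100885098 to 100939540). It had between 60.1 and 70.5 CPM over the 24 myoblast libraries and between 226 and 262 CPM over the 24 libraries of differentiated cells. In none of the 6 comparisons did Stat3 pass edgeR's test or that of DESeq2. Its log2 fold changes were -0.01, -0.06 and 0.07 in myoblasts at 1 h, 3 h and 6 h (adjusted p = 0.888, 0.0828 and 0.095), and 0.03, 0.03 and -0.07 in differentiated cells (adjusted p = 0.931, 0.599 and 0.131). The widest of the intervals, in differentiated cells at 1 h, ran from -0.07 to 0.13. The stretched myoblasts lay all below the non-stretched ones at 3 h (means of 65.2 and 68.5 CPM) and all above them at 6 h (65.9 and 62.8 CPM), and the stretch effect differed between times (edgeR, adjusted p = 0.0293).

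Irf9 encodes the DNA-binding subunit of the complex with STAT2, and lies on the plus strand of chromosome 14 (55603571 to 55610030). In myoblasts at 1 h it stood at 7.72, 6.98, 8.06 and 6.92 CPM without stretching and at 5.59, 5.92, 5.45 and 5.09 CPM with it. All stretched libraries were lower. Irf9 fell from a mean of 7.42 ± 0.563 to 5.51 ± 0.345 CPM, a log2 fold change of -0.43 (95% interval -0.59 to -0.27; edgeR, adjusted p = 0.00591), with -0.35 within B27 and -0.50 within B31.

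At 3 h the groups of Irf9 overlapped in myoblasts (means of 7.21 and 6.94 CPM; edgeR, adjusted p = 0.665). At 6 h the stretched libraries had 9.997, 8.24, 11.3 and 8.24 CPM against 8.06, 7.84, 8.40 and 8.13 CPM, which overlapped and did not pass (log2 0.22; edgeR, adjusted p = 0.107). Without stretched replicate 8 it passed (log2 0.28, edgeR, adjusted p = 0.0443), and without stretched replicate 10 as well (log2 0.28, adjusted p = 0.0445), within a range of 0.0443 to 0.283 over the alternatives.

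In differentiated cells Irf9 had log2 fold changes of -0.32, -0.08 and 0.25 at 1 h, 3 h and 6 h, which did not pass edgeR's test (adjusted p = 0.472, 0.508 and 0.0645). The 6 h values were 8.16, 8.34, 9.47 and 8.53 CPM without stretching and 10.3, 8.56, 11.1 and 11.1 CPM with it, so that replicate 8 lay among the non-stretched libraries and the other 3 above them. Without that library the difference passed (log2 0.32; edgeR, adjusted p = 0.013), as it did without non-stretched replicate 9 (log2 0.29, adjusted p = 0.0386), with the experiment as a covariate (log2 0.25, adjusted p = 0.0267) and by DESeq2 (log2 0.25, adjusted p = 0.0372); the range over the alternatives was 0.013 to 0.154. The effect of stretching on Irf9 differed between times in both stages (edgeR, adjusted p of 0.00123 for myoblasts and of 0.0331 for differentiated cells).

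Irf1 is a transcription factor that interferon gamma is known to induce. It lies on the plus strand of chromosome 11 (53770014 to 53778374), and its promoter is shown because it is the single window of the 9 genes with a match to the GAS letters (TTC, any 3 bases, GAA). These are the 250 bases before its start (RefSeq, GRCm38.p6, chr11:53769764-53770013, plus strand), with the match in capitals.
Irf1: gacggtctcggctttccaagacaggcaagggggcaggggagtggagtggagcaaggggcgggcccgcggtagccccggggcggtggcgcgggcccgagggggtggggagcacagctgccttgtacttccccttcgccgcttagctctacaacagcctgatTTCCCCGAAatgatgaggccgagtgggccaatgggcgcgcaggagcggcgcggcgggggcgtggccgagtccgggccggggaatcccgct
The match begins 90 bases before the start. The letters occur in 8.3% of the 32851 windows, and they read the same on both strands.

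In myoblasts at 1 h, Irf1 stood at 15.4, 16.6, 17.6 and 17.3 CPM without stretching and at 12.0, 10.7, 11.1 and 10.1 CPM with it. The groups did not overlap. The means were 16.7 ± 1.00 and 10.97 ± 0.784 CPM, and the log2 fold change was -0.61 (95% interval -0.74 to -0.47; edgeR, adjusted p = 0.000196), with -0.49 within B27 and -0.72 within B31. At 3 h and 6 h the groups overlapped, with log2 fold changes of 0.00 and 0.01 (edgeR, adjusted p = 0.989 and 0.935). The effect differed between times (edgeR, adjusted p = 1.79e-05).

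At 1 h the non-stretched libraries of differentiated cells had 26.7, 26.9, 25.6 and 26.5 CPM of Irf1, and stretched replicates 4, 7, 8 and 9 had 30.5, 18.9, 19.2 and 20.2 CPM. Replicates 7, 8 and 9 lay below all non-stretched libraries and replicate 4 above them. With all 8 libraries the main fit gave a log2 fold change of -0.26, which did not pass (edgeR, adjusted p = 0.675). A covariate for the experiment, in which replicate 4 is the only library of B17, gave -0.45 and passed (edgeR, adjusted p = 0.000613). The replicate block also gave -0.45 and passed (edgeR, adjusted p = 0.00842). Without stretched replicate 4 Irf1 fell by 0.45 on the log2 scale (edgeR, adjusted p = 0.00152; 0.000613 to 0.937 over the alternatives), and within the experiments the difference was -0.49 (B25) and -0.37 (B28). The time interaction of Irf1 in differentiated cells did not pass in the main fit (edgeR, adjusted p = 0.337) and passed without stretched replicate 4 (edgeR, adjusted p = 2.22e-05). With that library kept, it passed in edgeR with the experiment as a covariate (adjusted p = 1.56e-05) and with the replicate block (adjusted p = 6.47e-05).

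At 3 h, Irf1 in differentiated cells was slightly lower with stretching: 27.8, 27.1, 27.01 and 29.0 CPM against 25.9, 26.4, 23.8 and 25.4 CPM. The groups did not overlap, and the fall of 0.13 on the log2 scale passed narrowly (edgeR, adjusted p = 0.0494). It was lost in 10 of 15 alternatives, among them without any single library other than stretched replicate 8 (edgeR, adjusted p = 0.0582 to 0.125), and the adjusted p ran from 0.0371 to 0.397 over all of them. At 6 h the groups overlapped and differed by 0.01 on the log2 scale (edgeR, adjusted p = 0.858).

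Irf7, which raises the interferon alpha genes once phosphorylated, lies on the minus strand of chromosome 7 (141262706 to 141266481). It had 4 to 23 counts in a myoblast library and 50 to 112 counts in a library of differentiated cells. No comparison passed the edgeR test. Log2 fold changes were 0.00, -0.46 and 0.21 in myoblasts and -0.01, 0.16 and -0.02 in differentiated cells (adjusted p = 0.998, 0.158 and 0.649, and 0.994, 0.559 and 0.952). At these counts the intervals were wide, from -0.93 to 0.94 in myoblasts at 1 h and from -0.40 to 0.37 in differentiated cells at 1 h.

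The interferon-stimulated genes encode effectors of the antiviral response: IFIT1 and IFIT3 bind viral RNA as a complex, ISG15 is a ubiquitin-like protein that is attached to other proteins, and APOL9B belongs to the apolipoprotein L family. Their promoters are shown because they share the ISRE that Stat2 also holds, more than once in each window. All are RefSeq sequences of GRCm38.p6, with the matches to the ISRE letters on either strand in capitals, and neighbouring matches that overlap run together. The windows are chr4:156200836-156200935 (minus strand) for Isg15, chr19:34640749-34640848 (plus strand) for Ifit1, chr19:34583345-34583444 (plus strand) for Ifit3 and chr15:77729021-77729050 (plus strand) for Apol9b. The window of Apol9b lies before its RefSeq start but reaches past the start that GENCODE gives the gene (77729039). Most of its capitals lie after that GENCODE start.
Isg15: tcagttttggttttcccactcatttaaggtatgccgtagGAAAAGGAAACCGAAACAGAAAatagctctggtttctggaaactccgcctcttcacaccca
Ifit1: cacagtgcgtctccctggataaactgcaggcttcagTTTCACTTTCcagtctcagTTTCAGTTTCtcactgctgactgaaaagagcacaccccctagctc
Ifit3: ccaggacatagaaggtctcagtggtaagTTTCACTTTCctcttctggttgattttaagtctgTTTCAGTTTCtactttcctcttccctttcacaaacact
Apol9b: ccgggaggtgagacTTTCAGTTTCCATTTC
Isg15 had 3 overlapping matches, Ifit1 and Ifit3 had 2 each, and Apol9b had 2 that overlap. With Stat2, 5 of the 9 genes had a match, and no match to these letters was found in the windows of Stat3, Irf1, Irf7 and Irf9.

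Ifit1 (chromosome 19, 34640871 to 34650009, plus strand) and Ifit3 (chromosome 19, 34583531 to 34588731, plus strand) were barely measurable in myoblasts. Ifit1 had 2 to 30 counts in a myoblast library and was removed by the filter on low counts at 1 h and 6 h; Ifit3 had 4 to 19 counts and was removed at 3 h. In differentiated cells Ifit1 had 18 to 94 counts and Ifit3 20 to 71 counts. Of the stretches of 31 bases of Ifit3, 61.8% also occur in Ifit3b, so its count depends on how Salmon divided shared reads, and 9.16% of those of Ifit1 occur in Ifit1bl2.

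Neither gene passed edgeR's test in a comparison in which it was tested. For Ifit1 the log2 fold change was 0.17 in myoblasts at 3 h (adjusted p = 0.729) and -0.21, 0.15 and 0.20 in differentiated cells (adjusted p = 0.956, 0.753 and 0.788). For Ifit3 it was -0.52 and -0.59 in myoblasts at 1 h and 6 h (adjusted p = 0.463 and 0.178) and -0.13, -0.49 and 0.35 in differentiated cells (adjusted p = 0.961, 0.277 and 0.237). The interval of Ifit1 in differentiated cells at 6 h ran from -0.78 to 1.18.

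Isg15 (chromosome 4, 156199424 to 156200818, minus strand) had 6 to 29 counts in a myoblast library and 31 to 93 counts in a library of differentiated cells. Of the stretches of 31 bases of Isg15, 12.8% occur in other genes (10.2% in AC151275.1). Its log2 fold changes were 0.04, -0.30 and 0.48 in myoblasts (edgeR, adjusted p = 0.967, 0.446 and 0.311). In differentiated cells they were 0.09, 0.41 and -0.17 (edgeR, adjusted p = 0.971, 0.114 and 0.663). The difference of 0.41 at 3 h, from a mean of 0.913 to 1.22 CPM, was of like size within B25 and B28 (0.41 in each). Within B25 and B28 it was 0.51 and 0.15 at 1 h, and 0.01 and -0.35 at 6 h. In myoblasts the values within B27 and B31 lay on opposite sides of 0. They were -0.79 and 0.57 at 1 h, 0.12 and -0.87 at 3 h, and -0.01 and 0.79 at 6 h.

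The levels of these genes in non-stretched differentiated cells were also read by experiment, without a test. Over the 6 non-stretched libraries of each experiment, Ifit1 had a mean of 0.513 CPM in B25 and 1.03 CPM in B28, with the highest B25 library (0.632 CPM) below the lowest of B28 (0.784 CPM). Ifit3 had means of 0.585 and 0.875 CPM, Isg15 of 0.714 and 1.09 CPM, and Irf7 of 1.12 and 1.43 CPM in the same order. The libraries of the experiments overlapped for Isg15 and Irf7. The stretched and non-stretched groups at 3 h and 6 h hold both experiments in equal parts.

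Apol9b (chromosome 15, 77729039 to 77736382, plus strand) was the most abundant of the 4 interferon-stimulated genes per length, and 64.9% of its stretches of 31 bases also occur in Apol9a. Its values in differentiated cells at 1 h were 20.9, 20.9, 19.8 and 20.1 CPM without stretching and 30.1, 24.5, 24.9 and 21.1 CPM in stretched replicates 4, 7, 8 and 9. All stretched libraries were higher, with replicate 4 highest. The log2 fold change of 0.30 did not pass (edgeR, adjusted p = 0.267), and it was 0.20 without replicate 4 (adjusted p = 0.275; 0.0553 to 0.572 over the alternatives).

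At 3 h, differentiated cells had 22.5, 23.6, 20.3 and 20.5 CPM of Apol9b without stretching and 24.4, 23.7, 26.4 and 23.5 CPM with it. The lowest stretched library lay just under the highest non-stretched one. Apol9b rose by 0.18 on the log2 scale (edgeR, adjusted p = 0.0429), a call that was lost in 9 of 15 alternatives. Among these were the replicate block (adjusted p = 0.0599) and the fit of all 24 libraries (adjusted p = 0.216). It was also lost without any single library other than non-stretched replicate 8 (edgeR, adjusted p = 0.0503 to 0.123). Over all alternatives the adjusted p ran from 0.024 to 0.216.

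At 6 h the direction was the opposite, with 20.8, 21.7, 21.4 and 18.1 CPM without stretching and 13.6, 15.8, 15.6 and 19.5 CPM with it. Replicate 10 of the stretched cells lay among the non-stretched libraries and the other 3 below them. Apol9b fell by 0.35 on the log2 scale (edgeR, adjusted p = 0.0304), with -0.54 within B25 and -0.18 within B28. The call was lost in 7 of 15 alternatives, 1 of them the replicate block (adjusted p = 0.0655). The other 6 were fits without a single library, which was any but replicate 10 of either group (edgeR, adjusted p = 0.0528 to 0.0828). Over all alternatives the adjusted p ran from 0.00503 to 0.0828. The stretch effect on Apol9b differed between times in differentiated cells (edgeR, adjusted p = 0.00337).

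In myoblasts the log2 fold changes of Apol9b were 0.14, 0.22 and 0.14 at 1 h, 3 h and 6 h (edgeR, adjusted p = 0.393, 0.0694 and 0.204). At 3 h, where the groups overlapped, the difference passed in 5 of 15 alternatives: without stretched replicate 9 (log2 0.29, adjusted p = 0.0182), without non-stretched replicate 7 (log2 0.28, adjusted p = 0.0278), with the experiment as a covariate (adjusted p = 0.0301), with the replicate block (0.0423) and with no filter (0.0439), within a range of 0.0182 to 0.193. The non-stretched myoblasts had less Apol9b at 6 h than at 1 h (means of 4.95 and 7.52 CPM). This difference of -0.61 passed a test that was added after the values were seen (edgeR, adjusted p = 0.00145), and it was the 1 pass among the 9 genes where 1.99% of all genes passed. The same test in differentiated cells, which 1.22% of all genes passed, gave a log2 difference of 0.00 for Apol9b (edgeR, adjusted p = 0.987).

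**Figure D3:**
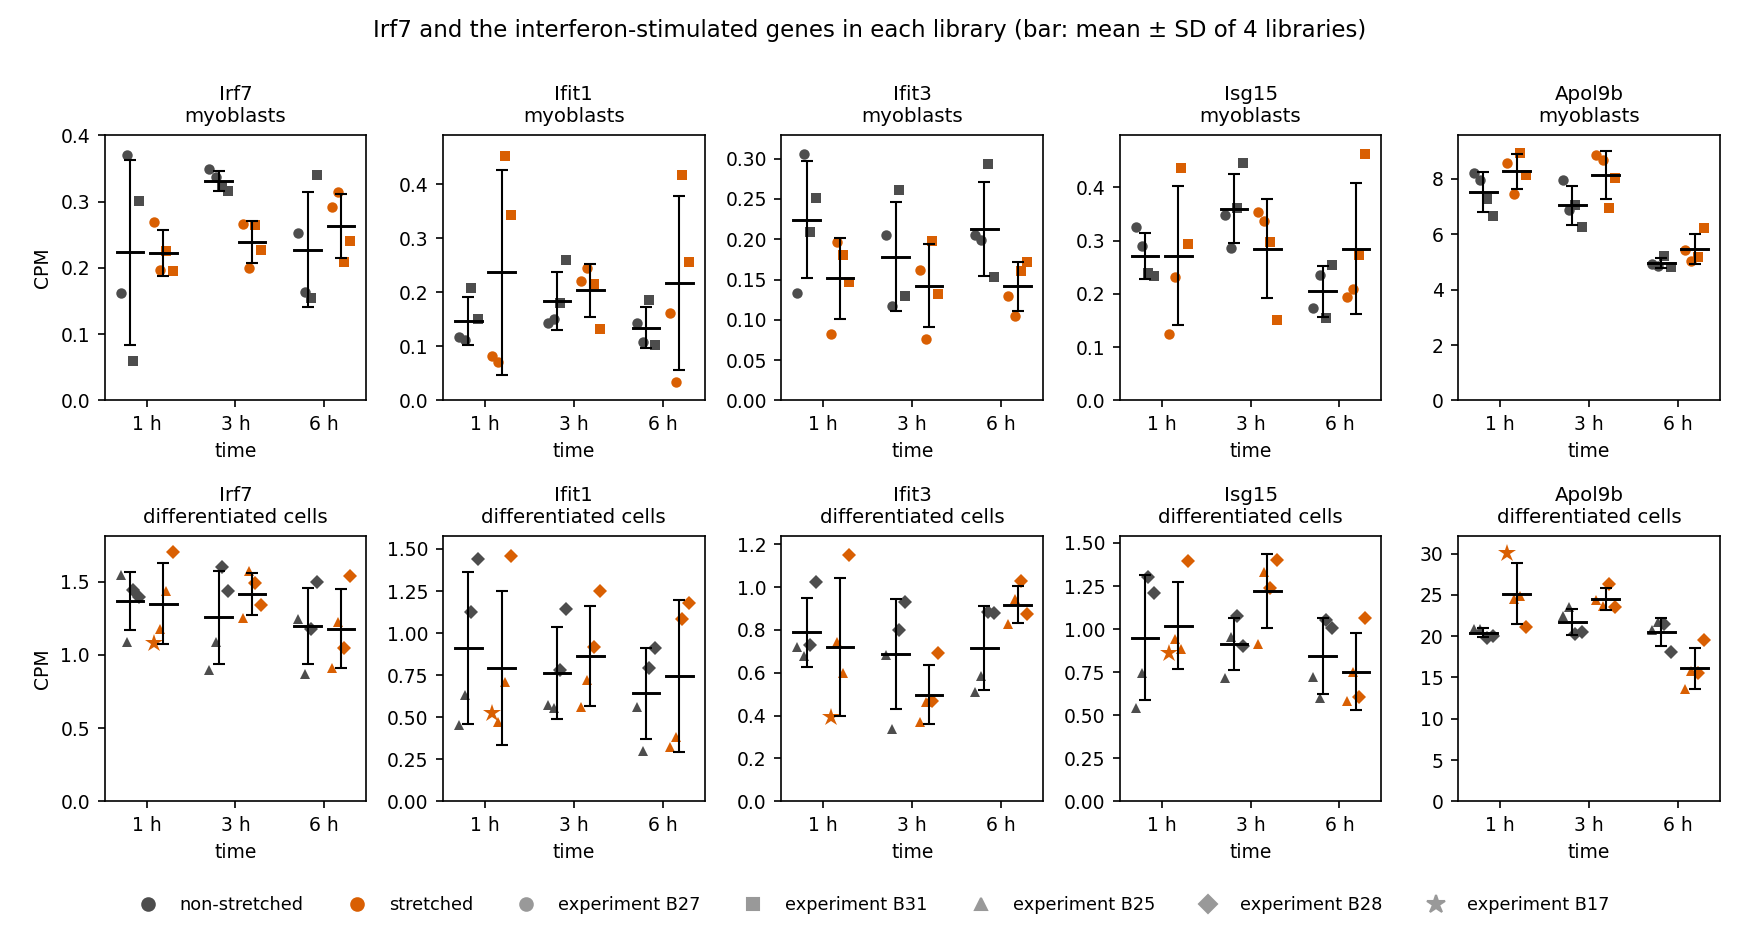
CPM of Irf7, Ifit1, Ifit3, Isg15 and Apol9b (vertical axis, from 0) in each of the 48 libraries at 1 h, 3 h and 6 h (horizontal axis), in myoblasts (top) and differentiated cells (bottom). Each point is a library, gray without and orange with stretching, with the shape giving the experiment code, and bars give the mean ± SD of 4 libraries; the groups of the first 4 genes overlap in each comparison except that of Irf7 in myoblasts at 3 h, and the mean of Apol9b in differentiated cells lies higher with stretching at 1 h and 3 h and lower at 6 h.

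The stages were compared by an interaction term over the 16 libraries of a time. The stages share no experiment code, so a difference between stages cannot be told apart from a difference between experiments. At 1 h edgeR passed 0 of 9 genes and 0% of all genes (percent called 0), while 1 of the 9, Irf1, had an unadjusted p under 0.05. At 3 h it passed 0 of 9 where 1.79% of all genes passed, with 2 (Irf7 and Isg15) at an unadjusted p under 0.05; no other tool was run for these terms. At 6 h it passed 2 of 9, where 5.18% of all genes passed: the effect on Apol9b was lower in differentiated cells than in myoblasts by a log2 difference of -0.50 (edgeR, adjusted p = 0.045), and that on Stat3 by -0.15 (edgeR, adjusted p = 0.0476; 0.0683 with RLE factors and 0.0339 to 0.0683 over the alternatives). For Stat2 the stages differed by 0.01, 0.09 and -0.08 at 1 h, 3 h and 6 h (edgeR, adjusted p = 1, 0.734 and 0.67).

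Other genes of the pathway were followed in lists chosen by name, starting with the ligands. Of 11 interferon genes, edgeR's filter left 0 to test in either stage. In myoblasts 8 of the 11 had 0 counts in all 24 libraries, among them Ifnb1, Ifna1, Ifna2, Ifna4, Ifna5 and Ifng, and no ligand exceeded 3 counts in a library. In differentiated cells 7 had 0 counts in all libraries, and the highest count was 10, for Ifng, the ligand of the gamma receptor. Ifng was above 0 there in 23 of the 24 libraries, with 69 counts in all. A count of 0 allows up to 3 counts, which is 0.0435 to 0.0619 CPM in a myoblast library and 0.0389 to 0.0556 CPM in a library of differentiated cells, for counting error only.

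The receptors had far higher counts than the ligands. Ifnar1 and Ifnar2, the chains of the type I receptor, had means over the 24 libraries of a stage of 81.4 and 19.4 CPM (myoblasts) or 70.9 and 22.2 CPM (differentiated cells). Ifnlr1, the specific chain of the lambda receptor, had at most 11 counts in a library. Of 9 receptors and JAK kinases tested, 5 fell in differentiated cells at 3 h, where 11.4% of all genes fell. The list median was -0.14 and that of all genes 0.00. In myoblasts 1 of 9 fell at 3 h, where 15.8% of all genes fell, and 1 rose at 6 h, where 14.1% rose. In differentiated cells at 6 h 1 rose and 1 fell, where 11.5% and 10.8% of all genes did. At 1 h edgeR and DESeq2 both passed 0 of 9 in either stage, with 1 (myoblasts) and 0 (differentiated cells) at an unadjusted p under 0.05 in edgeR. Tyk2, the kinase bound to IFNAR1, was among those that fell at 3 h. It and the receptors are named after their values were seen.

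Tyk2 at 3 h stood at 23.3, 24.4, 24.0 and 25.2 CPM in non-stretched myoblasts and at 17.7, 16.96, 18.4 and 18.9 CPM in stretched ones. In differentiated cells it stood at 33.7, 35.5, 37.0 and 35.4 CPM and at 23.9, 27.4, 26.9 and 27.2 CPM. The groups did not overlap in either stage. Tyk2 fell by 0.42 on the log2 scale in both (edgeR, adjusted p = 1.2e-05 in myoblasts and 0.00036 in differentiated cells).

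Stat5b, which answers to growth hormone and other cytokines, is given as a single gene and is named after its values were seen. At 3 h it fell by 0.14 on the log2 scale in myoblasts (edgeR, adjusted p = 0.00477), where 15.8% of all genes fell, and by 0.33 in differentiated cells (edgeR, adjusted p = 0.00248), where 11.4% fell. In both stages all 4 stretched libraries lay below all 4 non-stretched ones. At 6 h it fell by 0.17 in myoblasts (edgeR, adjusted p = 0.00636), where 13.0% of all genes fell, and had -0.04 in differentiated cells (edgeR, adjusted p = 0.543). At 1 h its values were 0.02 and -0.08 (edgeR, adjusted p = 0.817 and 0.867).

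Of the IRF family, 7 of 9 genes were tested in each comparison, and 3 are among the genes described above. Irf2, a relative of Irf1 that competes for its sites, fell at 3 h by 0.35 on the log2 scale in myoblasts (edgeR, adjusted p = 2.37e-05) and by 0.51 in differentiated cells (edgeR, adjusted p = 0.000223). Irf3, which switches on interferon beta after virus sensing, fell at 3 h by 0.33 and 0.21 (edgeR, adjusted p = 0.000131 and 0.0255). With Irf1 in differentiated cells these made 3 falls there, and in myoblasts 2 falls beside 1 rise, of Irf5 (log2 0.44, edgeR, adjusted p = 0.0346). Of all genes, 11.4% fell in the former comparison, and 15.8% fell and 16% rose in the latter. In myoblasts at 1 h 2 of 7 fell, Irf1 and Irf9, where 4.24% of all genes fell. At 6 h edgeR passed 0 of 7 in either stage, with 3 in each at an unadjusted p under 0.05, and DESeq2 passed 0 in myoblasts and 1 in differentiated cells. At 1 h in differentiated cells edgeR and DESeq2 passed 0, with 1 at an unadjusted p under 0.05 in edgeR. Irf2, Irf3 and Irf5 are named after their values were seen.

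Among 11 sensors of viral nucleic acids and their adaptors, 6 fell and 2 rose in myoblasts at 3 h, and 4 fell and 1 rose in differentiated cells at 3 h. Of all genes, 15.8% fell and 16% rose in the former comparison and 11.4% fell and 10.8% rose in the latter. At 6 h 3 rose and 2 fell in each stage, where 14.1% and 13.0% of all genes did in myoblasts and 11.5% and 10.8% in differentiated cells. At 1 h 1 fell in myoblasts (4.24% of all genes), and in differentiated cells edgeR and DESeq2 passed 0, with 2 at an unadjusted p under 0.05 in edgeR. Ikbke, a kinase of IRF3 and IRF7, was called in differentiated cells at 3 h: it stood at 4.74, 4.71, 5.79 and 4.84 CPM without stretching and at 2.62, 3.47, 2.97 and 3.23 CPM with it. Its groups did not overlap, and it fell by 0.71 on the log2 scale (edgeR, adjusted p = 0.00127); in myoblasts at 3 h it fell by 0.55 (edgeR, adjusted p = 0.000689). Mavs, the mitochondrial adaptor of the RNA sensors, fell at 3 h by 0.37 in myoblasts and by 0.33 in differentiated cells (edgeR, adjusted p = 1.94e-05 and 0.000204). Tbk1, the kinase related to Ikbke, rose at 3 h by 0.33 and 0.18 on the log2 scale (edgeR, adjusted p = 1.16e-05 and 0.00519). Mavs and Tbk1 are named after their values were seen.

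The list of type I interferon targets holds 55 genes, 4 of them described above. In myoblasts 35 were tested: 2 fell at 1 h, 9 fell and 2 rose at 3 h, and 5 fell and 4 rose at 6 h. In differentiated cells 1 of 40 fell at 1 h, 9 of 39 fell and 1 rose at 3 h, and 11 of 40 fell at 6 h. The rise at 3 h is that of Apol9b described above, which was lost in 9 of 15 alternatives. Apol9b is also among the 11 falls at 6 h, where it was lost in 7 of 15. The list medians were -0.04, -0.17 and -0.07 in myoblasts and -0.03, -0.11 and -0.15 in differentiated cells, where those of all genes lay between -0.01 and 0.00. Of all genes, 4.24%, 15.8% and 13.0% fell at these times in myoblasts, and 0.470%, 11.4% and 10.8% fell in differentiated cells. The shares that rose were 1.67%, 16% and 14.1% in myoblasts and 0.193%, 10.8% and 11.5% in differentiated cells. No rise of a listed gene passed edgeR at 1 h in either stage or at 6 h in differentiated cells, where DESeq2 passed 0, 0 and 1 and where 6, 5 and 20 genes had an unadjusted p under 0.05 in edgeR in either direction.

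Within this list Parp14, a mono-ADP-ribosyltransferase, was called in differentiated cells at 3 h, where it fell by 0.59 on the log2 scale from 2.60 ± 0.229 to 1.73 ± 0.432 CPM (edgeR, adjusted p = 0.0236). Adar, the RNA-editing enzyme, fell at 1 h in both stages, by 0.23 in myoblasts and 0.31 in differentiated cells (edgeR, adjusted p = 0.0312 and 0.0252), and was the 1 gene of the list to pass at 1 h in differentiated cells. At 6 h in differentiated cells, Ifitm3, a membrane protein that blocks virus entry, fell by 0.21 (edgeR, adjusted p = 0.00654), and Eif2ak2, the kinase activated by double-stranded RNA, fell by 0.31 (edgeR, adjusted p = 0.0176). Adar, Ifitm3 and Eif2ak2 are named after their values were seen.

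Of 26 interferon gamma targets, 18 were tested in differentiated cells, and 6 of these fell at 6 h, where 10.8% of all genes fell, with a list median of -0.13. At 3 h 3 of 18 fell and 1 rose, where 11.4% and 10.8% of all genes did. In myoblasts 3 of 12 fell at 3 h (15.8% of all genes), and 1 of 13 fell and 1 rose at 6 h (13.0% and 14.1%). At 1 h edgeR and DESeq2 passed 0 genes of this list in either stage, with 1 of 13 (myoblasts) and 0 of 18 (differentiated cells) at an unadjusted p under 0.05 in edgeR. Igtp, a GTPase that acts against parasites in vacuoles, was called in differentiated cells at 6 h. It stood there at 2.28, 2.36, 2.39 and 2.35 CPM without stretching and at 1.46, 1.26, 1.33 and 1.25 CPM with it. The groups did not overlap, and Igtp fell by 0.82 on the log2 scale (edgeR, adjusted p = 0.000647). The other 5 were Gbp2, Irgm2, Tap2, Tapbp and Psmb10, of which Gbp2 fell by 1.25 (edgeR, adjusted p = 0.00403) at a mean of 81.0 counts; these 5 are named after their values were seen.

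**Figure D4:**
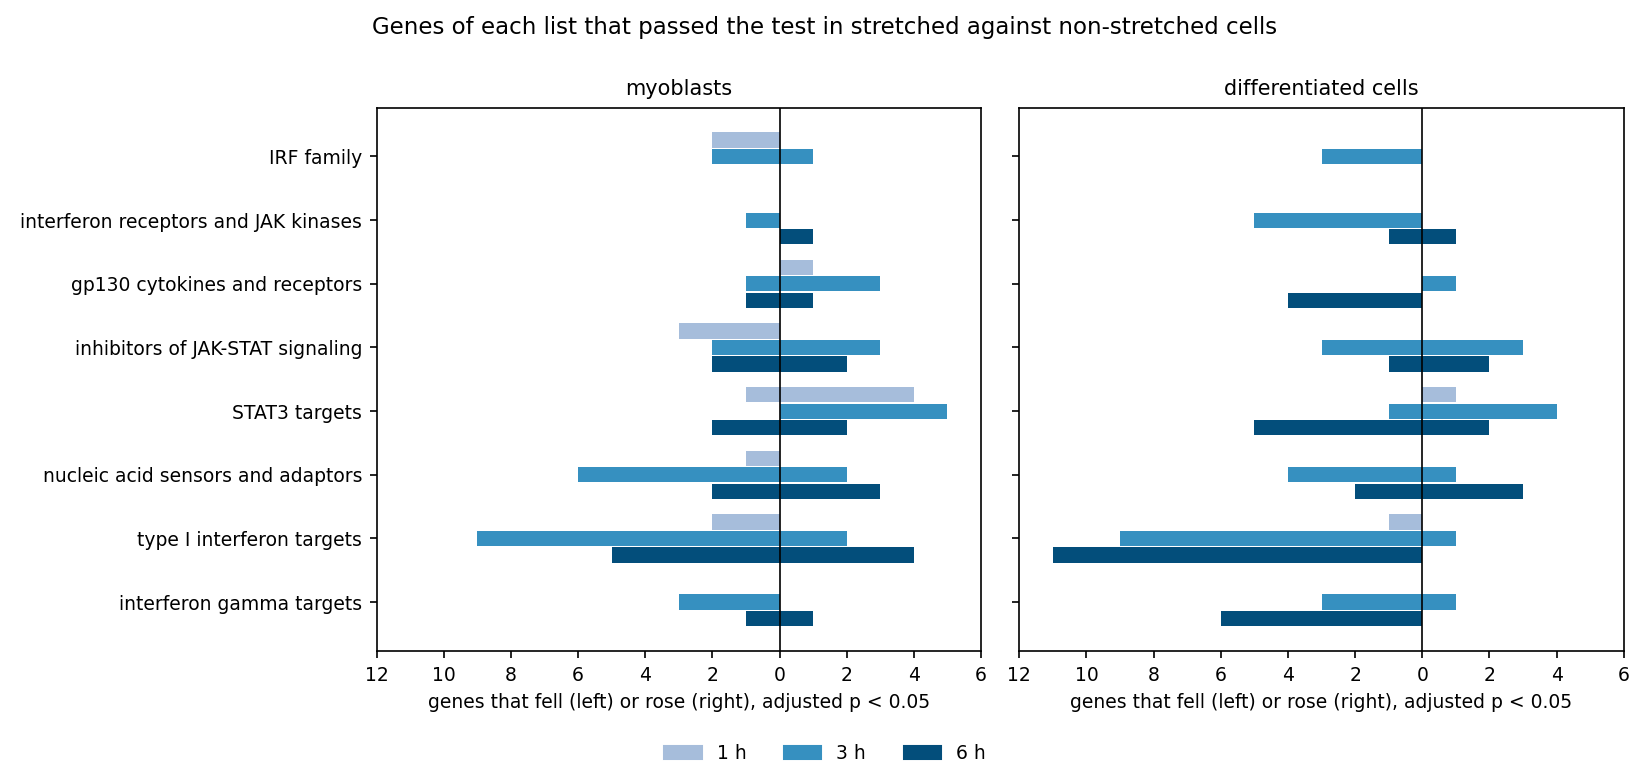
Number of genes of each of 8 lists (horizontal axis, genes) that fell (left of 0) or rose (right of 0) by edgeR in stretched against non-stretched cells, in myoblasts (left panel) and differentiated cells (right panel), with shades of blue for 1 h, 3 h and 6 h. The longest bars are those of the type I interferon targets, with 9 falls at 3 h in each stage and 11 at 6 h in differentiated cells; the lists shown differ in size, from 7 genes tested in the IRF family to 40 in the type I targets.

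The window of 300 bases was also searched in the lists. A match to the ISRE letters was found in 19 of the 42 type I targets with a promoter in the RefSeq table (45.2%) in 10 of 19 interferon gamma targets (52.6%) and in 0 of 10 STAT3 targets, where 3.99% of all 27025 genes had one. The GAS letters were found in 8 of 42 (19.0%), 6 of 19 (31.6%) and 1 of 10, where 9.55% of all genes had them. No test was made of these shares.

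The cytokines and receptors of the interleukin 6 family, which share the chain gp130 (Il6st), numbered most falls in differentiated cells at 6 h, where 4 of 12 tested fell beside 10.8% of all genes: Lif, Ctf1, Il11ra1 and Osmr. At 3 h there 1 rose, where 10.8% of all genes rose, and at 1 h edgeR passed 0, with 2 at an unadjusted p under 0.05, while DESeq2 passed 1. Of 11 tested in myoblasts, 1 rose at 1 h (1.67% of all genes), 3 rose and 1 fell at 3 h (16% and 15.8%), and 1 rose and 1 fell at 6 h (14.1% and 13.0%). Lif, a ligand that acts on STAT3, rose in myoblasts at 1 h by 0.57 on the log2 scale (edgeR, adjusted p = 0.00931) and fell in differentiated cells at 6 h by 0.49 (edgeR, adjusted p = 0.00458). Of 11 tested STAT3 targets, 4 rose and 1 fell in myoblasts at 1 h (1.67% and 4.24% of all genes), and 2 rose and 5 fell in differentiated cells at 6 h (11.5% and 10.8% of all genes). In myoblasts 5 rose and 0 fell at 3 h (16% and 15.8% of all genes; by DESeq2 also 5 and 0, with 6 of the 11 at an unadjusted p under 0.05 in edgeR), and 2 rose and 2 fell at 6 h (14.1% and 13.0%). In differentiated cells 1 rose at 1 h (0.193%), and 4 rose and 1 fell at 3 h (10.8% and 11.4%). Myc rose in myoblasts at 1 h by 0.38 (edgeR, adjusted p = 0.000109), and Junb fell in differentiated cells at 6 h by 0.46 (edgeR, adjusted p = 0.000699). These genes are named after their values were seen.

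Of 16 tested inhibitors of JAK-STAT signaling, 3 fell in myoblasts at 1 h, where 4.24% of all genes fell: Socs1, Socs3 and Socs4. In myoblasts 3 rose and 2 fell at 3 h (16% and 15.8% of all genes), and 2 rose and 2 fell at 6 h (14.1% and 13.0%). In differentiated cells 3 rose and 3 fell at 3 h (10.8% and 11.4%), and 2 rose and 1 fell at 6 h (11.5% and 10.8%). At 1 h edgeR and DESeq2 passed 0 of 16 there, with 2 at an unadjusted p under 0.05 in edgeR. Socs3, which STAT3 induces and which blocks gp130 signaling, fell in myoblasts at 1 h by 0.22 on the log2 scale (edgeR, adjusted p = 0.0168). At 1 h in differentiated cells, Socs3 stood at 30.4, 28.9, 33.9 and 32.2 CPM without stretching and at 135, 33.9, 34.0 and 32.4 CPM in stretched replicates 4, 7, 8 and 9. Replicate 4 also had the highest Il6 (3.05 CPM against 0.512 to 0.617 CPM in the other stretched libraries) and the highest Lif (33.8 CPM against 19.3 to 23.1 CPM). In this library Irf1 and Apol9b were highest and Stat2 lowest of the 8; the part of these values in the results for the 9 genes was not tested. Socs1, Socs3, Socs4, Il6 and Lif are named after their values were seen.

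Fos, Egr1, Atf3, Cyr61 and Ctgf, known to answer to stretch, were also read. The study itself lists them as changed at 1 h in both stages of these data, so they are no independent control. In myoblasts at 1 h 5 of 5 were called up, where 1.25% of all genes were called. In differentiated cells at 1 h, 2 of 5 were called by edgeR with all libraries (Fos and Cyr61), where 0.270% of all genes were called. With all libraries DESeq2 called 5 of 5. Without stretched replicate 4, an analysis added after the values were seen, edgeR called 5 of 5. Without that library 1 of the 9 genes passed at 1 h (Irf1), as described above. At 3 h, Egr1 was called down in myoblasts (log2 -0.63), and Atf3 and Ctgf were called up in differentiated cells (log2 0.62 and 1.01). At 6 h 1 of 5 rose and 3 fell by edgeR in myoblasts, where 14.1% and 13.0% of all genes did. In differentiated cells 1 rose and 2 fell at 6 h, where 11.5% and 10.8% of all genes did. The fold change rule called 0 of 5 at 6 h in either stage.

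Markers of cell types were read in each library. Markers of myogenic cells (Myod1, Myf5 and Des) summed to a median of 995 CPM in myoblasts and to 3178 CPM after differentiation, most of it Des. Markers of differentiated muscle (5 genes) summed to a median of 7.34 CPM in myoblasts; of these Myog was called down in stretched myoblasts at 3 h (log2 -0.82; edgeR, adjusted p = 0.0167), with overlapping groups. In myoblasts at 1 h the 4 tested had a median log2 fold change of -0.95, where that of all genes was 0.00. Here edgeR passed 0 of them, 3 had an unadjusted p under 0.05, and DESeq2 called 2 down. In myoblasts at 6 h 1 of 4 tested fell by edgeR and 0 by DESeq2, with a list median of -0.15. Of the 3 myogenic markers, 1 rose and 1 fell by edgeR there. Of all genes, 14.1% rose and 13.0% fell in that comparison. In differentiated cells at 6 h the summed markers of all 4 stretched libraries lay below those of all 4 non-stretched ones, with a list median of -0.14. There edgeR passed 0 of 5, 2 had an unadjusted p under 0.05, and 1 fell by DESeq2. The part of these markers in the results for the 9 genes was not tested. The 6 markers of leukocytes, cells with strong interferon responses, summed to 1.11 to 1.62 CPM in a myoblast library and 1.70 to 2.60 CPM in a library of differentiated cells. Of these markers, Adgre1 was at 0 in all 48 libraries. Cd68 had 47 to 90 counts in a myoblast library and 19 to 62 in a library of differentiated cells. Itgam had 0 to 3 counts in a myoblast library and 50 to 101 in a library of differentiated cells. Cd68 and Itgam are named after their values were seen. The 3 endothelial markers summed to at most 0.819 CPM, although Kdr, named after its values were seen, was called up in stretched myoblasts at 6 h, from 0.206 to 0.494 CPM at a mean of 21.1 counts.

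The genes whose log2 CPM followed a member most closely were ranked over the 24 libraries of a stage, among 11401 genes in myoblasts and 11871 in differentiated cells. Nearest to Stat2 were Tmem126b, Zfp111 and Pdrg1 in myoblasts (Pearson's r of 0.969, 0.96 and 0.95) and Cbx2, D17H6S53E and Ephb3 in differentiated cells (0.935, 0.931 and 0.93). Nearest to Irf1 in myoblasts was Zfp866 (0.938), and to Irf9 in myoblasts 2810403A07Rik (0.951). These values describe likeness only, since the 24 libraries share their groups, times and experiments.

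Several limits bear on these values. Except in stretched differentiated cells at 1 h, the 4 libraries of a group come from 2 experiments. A comparison within an experiment then has 2 libraries a group. In stretched differentiated cells at 1 h, replicate 4 is the single library of its experiment and has no non-stretched partner. Replicate 9 is the only stretched library of B28 there, so each value within B28 at 1 h rests on it. Irf7, Ifit1, Ifit3 and Isg15 had too few counts in myoblasts for small differences to be detectable. Counts of Ifit3 and Apol9b depend on the division of reads shared with Ifit3b and Apol9a. Phosphorylation of STAT proteins and protein levels were not analysed here, and matches to letters in a promoter do not show binding.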

How the data were processed

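The authors deposited, for each stage, whole-number counts per gene symbol and library, from reads that, by their processing notes, were aligned to mm10 with STAR and quantified with Salmon; 48 libraries were used and 0 columns left out. The 9 genes and the gene lists were chosen with earlier results of these data known. Genes were filtered with filterByExpr, scaled with TMM and tested over all genes with edgeR 4.0.16 in R 4.3.3; log2 CPM used a prior count of 1. Alternatives were DESeq2 1.42.0, RLE factors, no filter, a minimum of 10 counts in each library, a fit of all 24 libraries of a stage, a covariate for the experiment, a replicate block, the fold change rule and leaving out each library. Named besides the 9 genes are list genes called at a mean of at least 100 counts; others are said to have been named after their values were seen. The code was tested on simulated data. Positions and shared 31-base stretches come from GENCODE vM21, promoters from RefSeq GRCm38.p6. One library with the experiment code B231 was taken as B31.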

Additional observations from a re-analysis of the deposited data

Results flagged for a closer look

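In 108 groups of 4 libraries (9 genes, 12 groups), 3 had a library whose distance to its nearest neighbour was above the 95% critical value of Dixon for its share of the range of the group; chance gives this in about 1 of 20 groups. Irf1 in stretched differentiated cells at 1 h had 30.5 CPM in replicate 4 and 18.9 to 20.2 CPM in the others. Ifit3 in non-stretched differentiated cells at 1 h had 1.03 CPM (67 counts) in replicate 10 and 0.680 to 0.730 CPM in the others. Isg15 in stretched differentiated cells at 1 h had 1.39 CPM (86 counts) in replicate 9 and 0.860 to 0.943 CPM in the others.

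The stretch effect differed between times, by an interaction term in edgeR, for these genes. In myoblasts the adjusted p was 2.56e-07 for Stat2, 0.0293 for Stat3, 1.79e-05 for Irf1 and 0.00123 for Irf9. In differentiated cells it was 0.000924 for Stat2, 0.0331 for Irf9 and 0.00337 for Apol9b. Between the stages at 6 h, which share no experiment, the effect differed for Stat3 (adjusted p = 0.0476) and Apol9b (adjusted p = 0.045).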

How the results depend on the processing

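The number of the 9 genes past adjusted p 0.05 in myoblasts at 1 h stayed within 1.5 times its value of 3 in each alternative run. Elsewhere it moved, and the cause was not tested unless stated. With the fold change rule, stricter by construction, it was 0 in place of 1 in myoblasts at 3 h and at 6 h, 0 in place of 3 in differentiated cells at 3 h, and 0 in place of 2 at 6 h. In myoblasts at 3 h it was 2 with no filter, with the experiment as a covariate and with the replicate block. In differentiated cells at 1 h, where edgeR gave 0 (3 at an unadjusted p under 0.05), it was 2 with the experiment as a covariate, 2 with the replicate block, 1 with all 24 libraries in 1 model and 1 with DESeq2. With all 24 libraries it was 0 at 3 h and 1 at 6 h in differentiated cells, and 1 at 6 h with the replicate block. Leaving out 1 library gave 1 to 2 in myoblasts at 3 h, 1 to 2 at 6 h, and in differentiated cells 0 to 1 at 1 h, 1 to 2 at 3 h and 1 to 2 at 6 h. The genes whose effect differed between stages at 6 h numbered 1 with RLE factors in place of 2.

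Among the log2 fold changes of the 9 genes, 711 alternative values kept their side of the threshold, 28 lost it and 19 newly passed it; 45 of the 711 changed sign, none of them past the threshold. With the replicate block, Stat2 in differentiated cells at 1 h had a log2 fold change of -0.53 (adjusted p = 0.0253). Residuals of libraries with the same replicate number correlated at -0.0441 to 0.153, so the numbers were not taken as pairs. Depth was lowest for Irf7, Ifit1, Ifit3 and Isg15, which had 2 to 30 counts in a myoblast library, and differences within their intervals were not detectable there. Experiment B17 holds 1 library, so no value within it exists.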
